A study of Mus musculus with 24 samples.

Results

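The 42 genes described here belong to the proximal tubule, the first and longest reabsorbing stretch of the nephron. They were given by symbol and were found on the array through their RefSeq accessions, and all 42 were among the 27985 genes tested. They fall into 10 classes: 4 endocytosis receptors and adaptors, 5 phosphate transporters, 6 sugar and monocarboxylate transporters, 9 amino acid and peptide transporters, 5 ion, water and carboxylate transporters, 3 genes of fatty acid uptake and the brush border, 3 of gluconeogenesis, 4 other metabolic enzymes, 1 transcription factor and 2 vitamin D hydroxylases. Every one of the 42 stood well above background on all 24 arrays, so none entered through a filter that favours one group. Whole kidneys of male mice were compared, called young adult in the labels and only a few weeks old by the study's methods, 6 controls of genotype mgb+/+ and 18 of genotype mgb-/-, with 1 kidney on each array. The mgb-/- mouse carries the megabladder mutation, in which bladder smooth muscle fails to form normally, so that urine outflow is impaired and the kidneys become hydronephrotic. Ultrasound of the preserved parenchyma had graded 7 mgb-/- kidneys as mild, 5 as moderate and 6 as severe. Whether some kidneys came from the same mouse is not given in the labels, and p-values then measure only the spread between kidneys.

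Proximal tubule cells take filtered protein up by receptor-mediated endocytosis and carry phosphate, glucose, amino acids and organic anions back to the blood through sodium-coupled and exchange transporters. They also make glucose, activate and degrade vitamin D, and line their lumen with a brush border of microvilli rich in peptidases. The early convoluted part (segments S1 and S2) and the late straight part (segment S3) use partly different transporters. A loss of such transcripts is widely used as a sign of tubular damage. In whole-kidney RNA, fewer proximal cells and less RNA per cell cannot be told apart.

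Levels are given as log2 of the background-subtracted signal relative to the 75th percentile of the array, so a difference of 1 is a doubling and a level says nothing about one gene against another. Between 55.6% and 70.8% of probes stood well above background on an array. The arrays lie on 3 slides, each with 2 control and 6 mgb-/- kidneys. On the array of severe kidney 4, 9.53% of spots lay in areas with many neighbouring spots far below the other arrays, against 0.0118% on severe kidney 6 and none on the other 22. The spots of Slc6a19, Hnf4a and Dao on that array lay in these areas. Results on Slc6a19 and Hnf4a are given with and without that spot, and the spot of Dao had been left out as an outlier. Severe kidney 5 was lower than the control mean by more than 1 for 35 of the 42 genes. Without it the change in severe kidneys shrank by more than 1.5 times, or turned its sign, for 22 of the 42 genes, and the counts in severe kidneys are also given without it.

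The stretches upstream of 6 genes that passed a test below are shown because the products of these genes do different work. RefSeq promoters of mouse build GRCm38.p6 matched 36 of the 42 genes (51 promoters). Each line gives the 250 bases before the start of transcription, 5' to 3', in lower case. Capitals mark 2 motifs searched on both strands: CAAAGTCCA, a site of HNF4, and AGGTCA, the core of a site of nuclear receptors, whose last letters CA can overlap the start of CAAAGTCCA.
Amn (chr12:111270846-111271095, strand plus): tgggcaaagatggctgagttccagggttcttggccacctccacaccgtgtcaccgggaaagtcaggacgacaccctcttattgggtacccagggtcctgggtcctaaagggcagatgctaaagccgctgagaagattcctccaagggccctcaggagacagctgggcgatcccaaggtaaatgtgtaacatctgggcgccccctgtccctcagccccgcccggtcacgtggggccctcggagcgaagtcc
Slc17a1 (chr13:23870023-23870272, strand plus): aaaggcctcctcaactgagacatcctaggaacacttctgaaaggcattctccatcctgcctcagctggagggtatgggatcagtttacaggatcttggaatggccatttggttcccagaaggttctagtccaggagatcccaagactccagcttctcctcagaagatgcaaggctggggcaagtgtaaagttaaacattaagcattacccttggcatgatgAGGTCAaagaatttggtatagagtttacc
Slc17a3 (chr13:23839184-23839433, strand plus): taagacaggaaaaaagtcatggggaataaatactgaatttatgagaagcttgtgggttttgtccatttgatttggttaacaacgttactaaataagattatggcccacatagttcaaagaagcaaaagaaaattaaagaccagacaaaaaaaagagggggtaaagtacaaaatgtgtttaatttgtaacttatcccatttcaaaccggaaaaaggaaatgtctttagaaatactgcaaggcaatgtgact
Slc34a3 (chr2:25234235-25234484, strand minus): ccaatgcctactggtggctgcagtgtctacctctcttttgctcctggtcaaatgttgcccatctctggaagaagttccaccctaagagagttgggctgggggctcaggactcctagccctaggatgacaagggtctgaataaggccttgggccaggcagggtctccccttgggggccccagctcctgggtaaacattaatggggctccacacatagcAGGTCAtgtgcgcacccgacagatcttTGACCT
Ggt1 (chr10:75563882-75564131, strand plus): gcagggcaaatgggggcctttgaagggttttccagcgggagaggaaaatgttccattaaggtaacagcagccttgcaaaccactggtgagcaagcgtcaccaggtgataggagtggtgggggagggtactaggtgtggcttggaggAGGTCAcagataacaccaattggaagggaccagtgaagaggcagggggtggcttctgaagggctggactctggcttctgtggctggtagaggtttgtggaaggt
Cyp27b1 (chr10:127047996-127048245, strand plus): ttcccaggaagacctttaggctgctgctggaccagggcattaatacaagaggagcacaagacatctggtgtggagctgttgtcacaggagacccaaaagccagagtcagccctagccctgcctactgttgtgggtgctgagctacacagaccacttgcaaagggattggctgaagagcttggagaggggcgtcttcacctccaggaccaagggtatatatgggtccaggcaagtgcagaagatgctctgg
Among these 6 stretches, AGGTCA or its reverse TGACCT was found once in Slc17a1, once in Ggt1 and 2 times in Slc34a3, and Amn, Slc17a3 and Cyp27b1 held neither motif. AGGTCA lay in 15 of the 51 promoters of the 36 genes (29.4%) and in 14.0% of 32851 mouse promoters of the same length. CAAAGTCCA lay in 3 of the 51 (5.88%), of Agxt2 and Slc3a1, against 0.384% of all. The promoters of Agxt2 overlap and share the same site, and by gene it was 2 of 36 (5.56%) against 0.451%. Ggt1 and Slc17a1 have more promoters than are shown above. The further promoters of Ggt1 held neither motif, so its match belongs to the promoter shown alone. The further promoter of Slc17a1 also held the core of the nuclear receptor site. All of these results are matches of letters, given without a test.

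Over all 18 mgb-/- kidneys, a few proximal tubule genes fell, 1 rose and most did not pass. Slc7a13, Slc17a3, Ggt1, Amn and Slc17a1 fell, and Cyp27b1 rose. A gene passed at an adjusted p under 0.05 in limma, adjusted over all 27985 genes. By this rule 5 of the 42 were lower, where 8.0% of all genes were, and 1 was higher, where 5.34% of all genes were. The median change of the 42 genes was -0.30 on the log2 scale, and 33 of them lay below 0, beside a median of 0.01 over all genes. With a fold of at least 2 added to the rule, 2 were lower (Slc7a13 and Slc17a3), where 1.26% of all genes were. The count of 5 moved to 2 without control kidney 1, 2, 3, 4 or 5, to 3 without control kidney 6, and to 8 without moderate kidney 5 or severe kidney 5. Among all 27985 genes 1050 to 1643 were lower without 1 of the controls. Without moderate kidney 5 there were 2814, and without severe kidney 5 there were 2611. Cyp27b1 and Slc7a13 passed whichever of the 24 kidneys was left out.

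**Figure D1:**
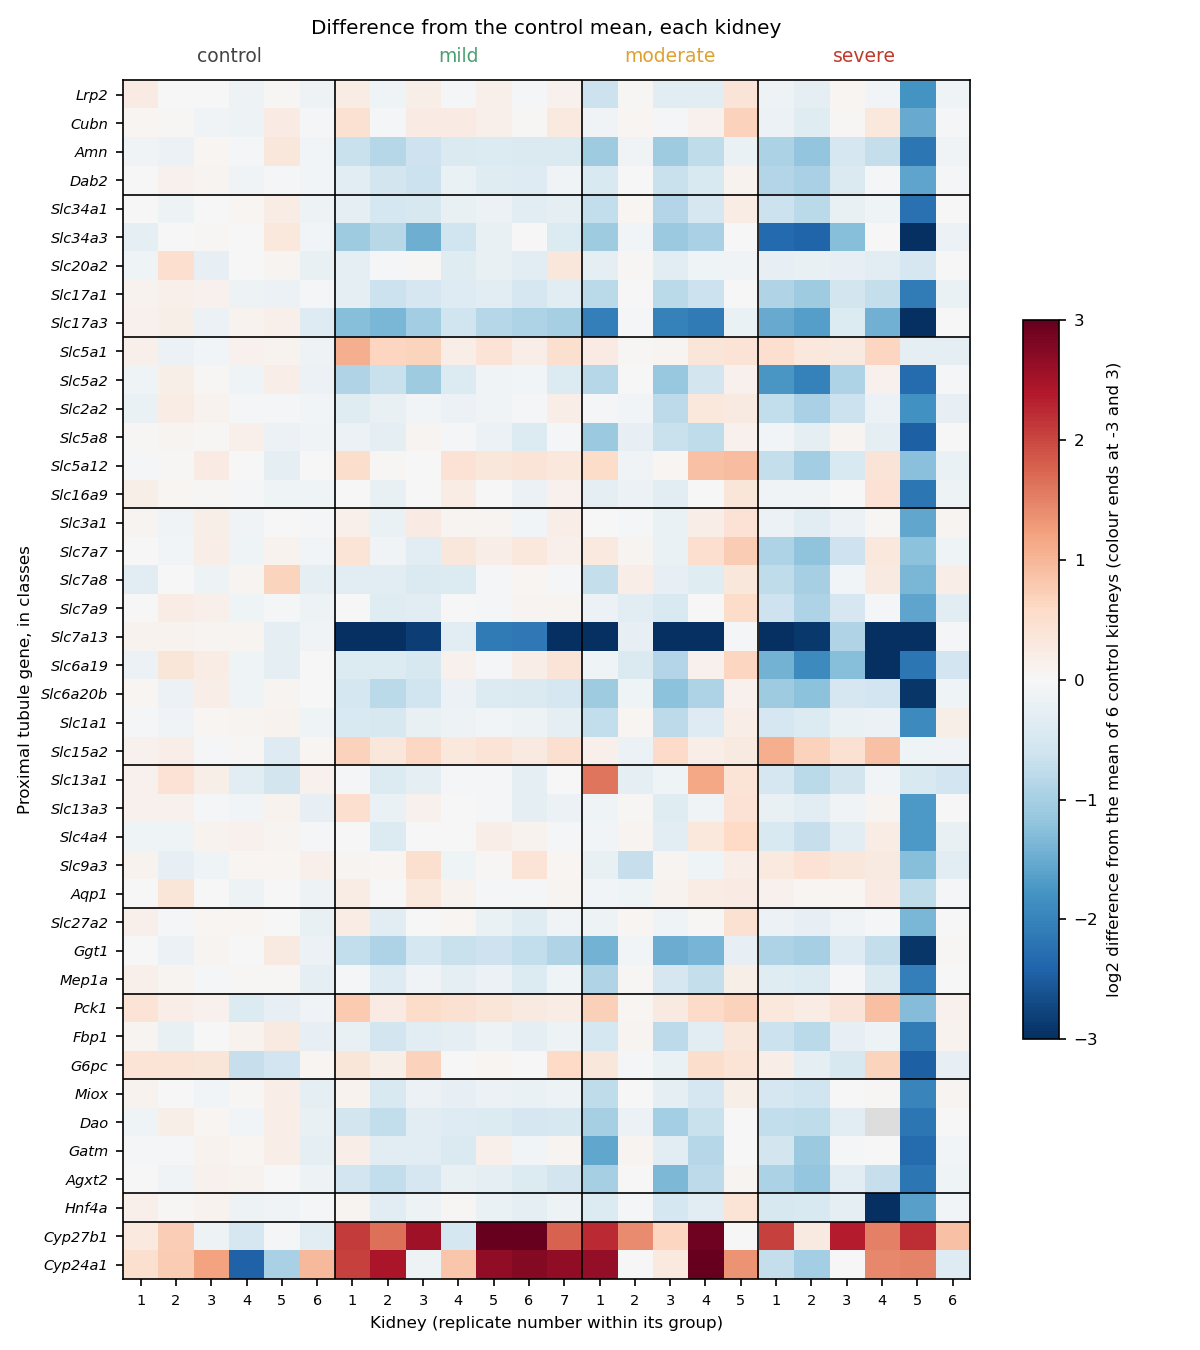
Log2 difference of each of the 42 genes (rows, in their classes) from the mean of the 6 control kidneys, in each of 24 kidneys (columns, by group and replicate number); blue is lower, red is higher, and the grey cell of Dao in severe kidney 4 has no value. Severe kidney 5 is lower by more than 1 for 35 genes, while moderate kidneys 2 and 5 and severe kidney 6 are lower by more than 1 for none.

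The endocytosis genes divided, each by its brightest probe. The 2 receptors, Lrp2 (megalin) and Cubn (cubilin), which together bind most filtered proteins, did not pass in any comparison, while Amn (amnionless), which carries cubilin to the membrane, fell. Their adaptor Dab2 fell in severe kidneys. Amn lay between 5.60 and 6.11 in control kidneys (median 5.69) and between 4.92 and 5.35 in mild kidneys (median 5.32), at 4.70, 5.66, 4.70, 5.01 and 5.57 in moderate kidneys 1 to 5, and between 3.58 and 5.67 in severe kidneys (median 4.93). All 7 mild kidneys lay below the lowest control, as did 4 moderate and 5 severe kidneys. The change was -0.70 ± 0.20 (SE; adjusted p = 0.0256) over all mgb-/- kidneys and -0.94 ± 0.24 (adjusted p = 0.0157) in severe kidneys, and it was below 0 on each of the 3 slides (-0.67, -0.80 and -0.64 over all mgb-/- kidneys). Without control kidney 3 or 5 Amn no longer passed over all mgb-/- kidneys, while in severe kidneys it passed whichever kidney was left out. The level of Dab2 was 3.85 to 4.08 in control kidneys (median 3.92), 3.31 to 3.84 in mild kidneys (median 3.59), 3.49, 3.96, 3.27, 3.48 and 4.06 in moderate kidneys 1 to 5, and 2.37 to 3.93 in severe kidneys (median 3.29). Its change was -0.66 ± 0.20 (adjusted p = 0.0323) in severe kidneys and -0.44 ± 0.17 (adjusted p = 0.0835) over all mgb-/- kidneys. The level of Lrp2 was 7.10 to 7.50 in control kidneys (median 7.25), 7.11 to 7.47 in mild kidneys (median 7.37), 6.60, 7.28, 6.92, 6.94 and 7.64 in moderate kidneys 1 to 5, and 5.46 to 7.31 in severe kidneys (median 7.12). Cubn lay between 5.70 and 6.09 in control kidneys (median 5.83) and between 5.81 and 6.30 in mild kidneys (median 6.09), at 5.74, 5.91, 5.79, 5.97 and 6.54 in moderate kidneys 1 to 5, and between 4.34 and 6.18 in severe kidneys (median 5.74). The groups overlapped for both receptors, with severe kidney 5 far below the rest at 5.46 for Lrp2 and 4.34 for Cubn. Over all mgb-/- kidneys the changes were -0.16 ± 0.20 (adjusted p = 0.642) for Lrp2 and 0.02 ± 0.19 (adjusted p = 0.966) for Cubn. A second probe of Cubn gave -0.16 over all mgb-/- kidneys. In severe kidneys it gave -0.68, where the probe used gave -0.29, so the result on Cubn depends on the probe.

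All 5 phosphate transporters lay below the control mean in every grade, and 2 passed over all mgb-/- kidneys, where 8.0% of all genes were lower. Slc17a3 and Slc17a1 are anion transporters first cloned as phosphate carriers, which also move urate. Slc17a3 lay between 6.09 and 6.66 in control kidneys (median 6.60) and between 5.11 and 5.89 in mild kidneys (median 5.48), at 4.43, 6.44, 4.45, 4.37 and 6.29 in moderate kidneys 1 to 5, and between 3.11 and 6.47 in severe kidneys (median 5.0). Moderate kidneys 2 and 5 and severe kidney 6 lay within the control range, and severe kidney 3, at 6.07, lay just under it. The change was -1.22 ± 0.35 (adjusted p = 0.0235) over all mgb-/- kidneys, and the second probe of the gene gave -0.97. It no longer passed without control kidney 1, 2 or 4. Slc17a1 ranged from 7.13 to 7.46 in control kidneys (median 7.32), from 6.67 to 7.01 in mild kidneys (median 6.92) and from 5.21 to 7.11 in severe kidneys (median 6.50), and was 6.49, 7.28, 6.49, 6.65 and 7.32 in moderate kidneys 1 to 5. Every mild and every severe kidney lay below the lowest control, 7.13. The change was -0.60 ± 0.20 (adjusted p = 0.0452) over all mgb-/- kidneys, a call that was lost when any of 16 of the 24 kidneys was left out, every control among them. With the slide as a block it did not pass either (adjusted p = 0.0573). In severe kidneys it was -0.92 ± 0.22 (adjusted p = 0.011) and held whichever kidney was left out.

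Slc34a1 (NaPi-IIa) and Slc34a3 (NaPi-IIc) are the sodium-phosphate cotransporters of the brush border. The level of Slc34a3 was 5.71 to 6.29 in control kidneys (median 5.96), 4.50 to 5.94 in mild kidneys (median 5.36), 4.89, 5.88, 4.85, 5.0 and 5.95 in moderate kidneys 1 to 5, and 2.64 to 5.98 in severe kidneys (median 4.16). In severe kidneys the values spread widely, with kidneys 4 and 6 at 5.98 and 5.78 inside the control range and kidneys 1, 2 and 5 at 3.64, 3.55 and 2.64. The change was -1.59 ± 0.43 (adjusted p = 0.0182) in severe kidneys, and it did not pass without severe kidney 2. Over all mgb-/- kidneys it was -0.97 ± 0.38 (adjusted p = 0.0904). Slc34a1 lay between 7.93 and 8.31 in control kidneys (median 8.10) and between 7.55 and 7.91 in mild kidneys (median 7.79), at 7.35, 8.14, 7.20, 7.58 and 8.30 in moderate kidneys 1 to 5, and between 5.86 and 8.09 in severe kidneys (median 7.64). All 7 mild kidneys lay below the lowest control. Its change was -0.46 ± 0.22 (adjusted p = 0.167) over all mgb-/- kidneys and -0.68 ± 0.27 (adjusted p = 0.086) in severe kidneys (-0.37 without kidney 5), and did not pass. The second probe of Slc34a1 gave larger changes, -0.69 over all mgb-/- kidneys and -1.03 in severe kidneys. The level of Slc20a2 was 2.12 to 2.88 in control kidneys (median 2.32), 2.02 to 2.71 in mild kidneys (median 2.15), 2.08, 2.40, 2.04, 2.25 and 2.26 in moderate kidneys 1 to 5, and 1.88 to 2.38 in severe kidneys (median 2.13). Slc20a2 (PiT-2), the other sodium-phosphate carrier of the list, overlapped among all groups and changed by -0.18 ± 0.11 (adjusted p = 0.266).

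Of 6 sugar and monocarboxylate transporters none passed over all mgb-/- kidneys, and 2 fell in severe kidneys, where 9.55% of all genes were lower. The 2 were Slc5a2 (SGLT2) and Slc2a2 (GLUT2), which carry glucose across the luminal and the basal membrane of the early segment. The level of Slc5a2 was 7.08 to 7.45 in control kidneys (median 7.20), 6.19 to 7.18 in mild kidneys (median 6.83), 6.40, 7.25, 6.12, 6.71 and 7.37 in moderate kidneys 1 to 5, and 4.93 to 7.37 in severe kidneys (median 5.91). Severe kidneys 4 and 6 (7.37 and 7.21) lay within the control range and the other 4 below it. The change was -1.16 ± 0.34 (adjusted p = 0.027) in severe kidneys, and it was lost without control kidney 2 or 3 or severe kidney 1, 2 or 5. Slc2a2 changed by -0.77 ± 0.22 (adjusted p = 0.0221) in severe kidneys and by -0.11 ± 0.21 (adjusted p = 0.831) in mild kidneys. Slc5a1 (SGLT1), the glucose carrier of the late segment, lay higher: all 7 mild kidneys (-0.28 to 0.61) stood above the highest control (-0.32), with a change of 0.53 ± 0.16 (adjusted p = 0.0503) in mild kidneys. The lactate carriers Slc5a8 and Slc5a12 changed by -0.51 ± 0.30 (adjusted p = 0.26) and -0.55 ± 0.22 (adjusted p = 0.0943) in severe kidneys, and Slc16a9, a monocarboxylate transporter, by -0.35 ± 0.27 (adjusted p = 0.399). Without severe kidney 5 the changes of Slc5a8 and Slc16a9 were -0.12 and 0.01.

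The widest range of all 42 genes was that of Slc7a13, an amino acid transporter of the late segment that is expressed more strongly in male than in female mouse kidneys. Slc7a13 lay between 5.29 and 5.67 in control kidneys (median 5.65) and between 0.89 and 5.26 in mild kidneys (median 2.74), at 0.98, 5.31, 0.54, 1.33 and 5.53 in moderate kidneys 1 to 5, and between -0.83 and 5.52 in severe kidneys (median 2.57). No mgb-/- kidney rose above the controls, and the values formed no narrow group: mild kidney 4, moderate kidneys 2 and 5 and severe kidney 6 were at 5.26 to 5.53, close to the controls, while severe kidney 5 was at -0.83. The change was -2.81 ± 0.76 (adjusted p = 0.0186) over all mgb-/- kidneys, and between -2.67 and -2.95 in the 3 grades. Slc7a13 and Cyp27b1 also stand in gene lists that the study drew from these samples, so their change here is not independent of that choice. The lowering was present on each slide (-3.41, -2.10 and -2.91).

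In severe kidneys, where 9.55% of all genes were lower, 4 of the 9 amino acid and peptide transporters fell: Slc7a13, Slc6a19, Slc6a20b and Slc7a9. Slc6a19 (B0AT1) takes up most neutral amino acids at the brush border of the early segment. The level of Slc6a19 was 3.84 to 4.49 in control kidneys (median 4.07), 3.65 to 4.50 in mild kidneys (median 4.07), 3.99, 3.69, 3.25, 4.26 and 4.76 in moderate kidneys 1 to 5, and -1.73 to 3.56 in severe kidneys (median 2.47). All 6 severe kidneys lay below the lowest control. The value of severe kidney 4 (-1.73) came from an affected area of its array, where 30 of 50 bright neighbouring spots were also low. With it, the change in severe kidneys was -2.20 ± 0.55 (adjusted p = 0.0131). Without the spots in such areas it was -1.47 ± 0.27 (SE; adjusted p = 0.00187), and severe kidneys were then also lower than mild kidneys, by -1.38 ± 0.26 (adjusted p = 0.0105). With the spot, the difference between severe and mild kidneys was -2.11 ± 0.53 (adjusted p = 0.0789). Mild and moderate kidneys did not differ detectably from the controls, at -0.09 ± 0.53 (adjusted p = 0.959) and -0.13 ± 0.58 (adjusted p = 0.935) with the spot. These SEs share the estimate of spread that includes that spot. Without the spots in such areas the changes were -0.09 ± 0.24 (adjusted p = 0.884) and -0.13 ± 0.27 (adjusted p = 0.824). Slc6a20b, an imino acid transporter, changed by -1.07 ± 0.32 (adjusted p = 0.0294) in severe kidneys, and Slc7a9, the light chain of the cystine carrier, by -0.66 ± 0.20 (adjusted p = 0.0282). Its heavy chain Slc3a1 changed by -0.35 ± 0.19 (adjusted p = 0.218), and by -0.11 without severe kidney 5. Slc7a7 and Slc7a8, light chains of basolateral exchangers, changed by -0.63 ± 0.22 (adjusted p = 0.0523) and -0.46 ± 0.25 (adjusted p = 0.213), and Slc1a1, the glutamate carrier, by -0.51 ± 0.24 (adjusted p = 0.156). Without severe kidney 5 the changes of Slc7a8 and Slc1a1 were -0.28 and -0.22. Slc15a2 (PEPT2), a peptide carrier of the late segment, was higher in all 7 mild kidneys (1.89 to 2.32) than in any control (highest 1.81), but its change of 0.39 ± 0.15 (adjusted p = 0.078) over all mgb-/- kidneys did not pass.

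**Figure D2:**
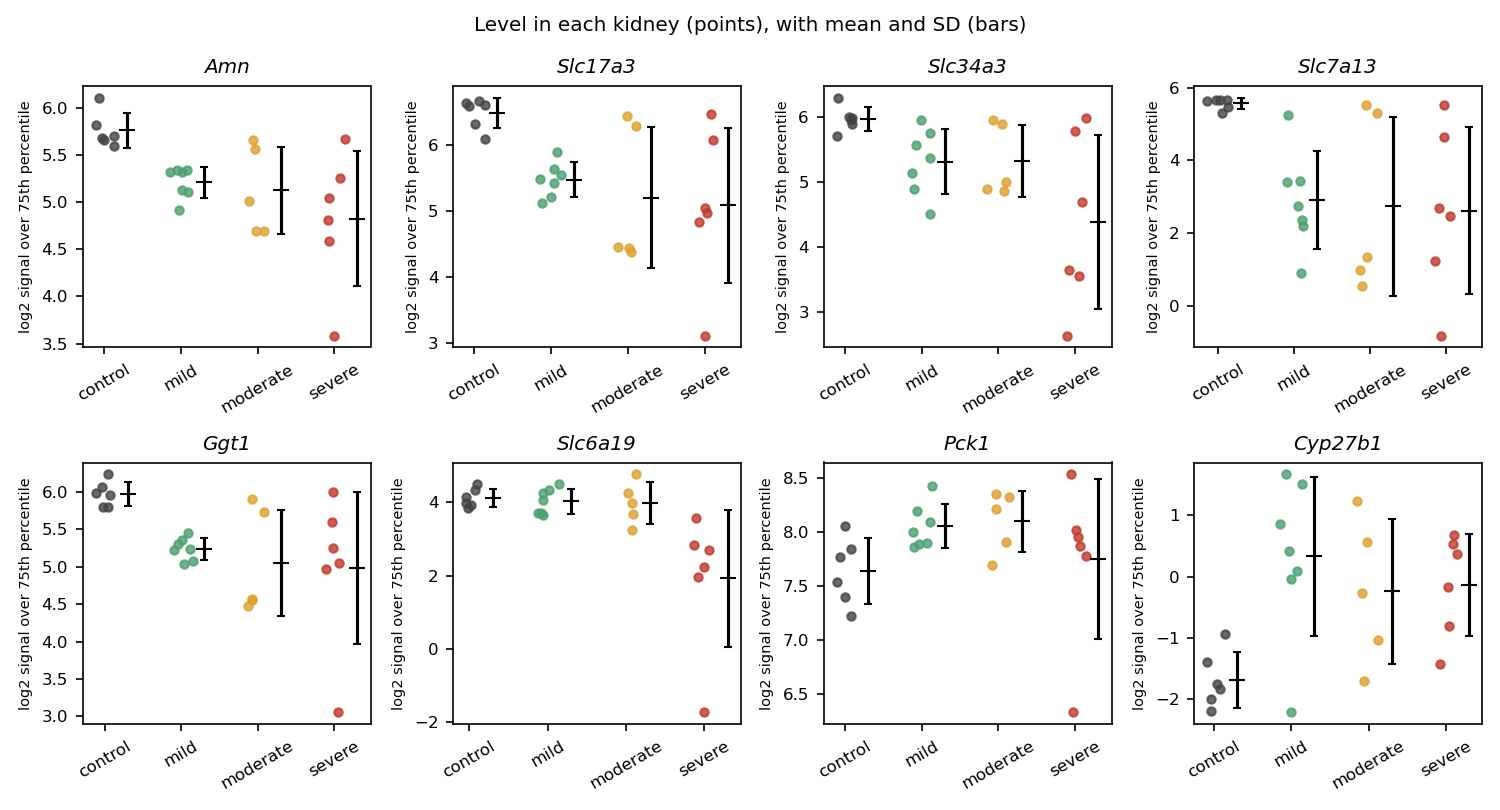
Log2 signal relative to the array's 75th percentile (vertical axis) of 8 genes in each kidney, as points by group, with the mean and SD of the group as a bar. For Slc17a3, Slc7a13 and Ggt1 moderate kidneys 2 and 5 lie in or just under the control range and the other 3 moderate kidneys far below, and the lowest point of Slc6a19, at -1.73, lies in an affected area of its array.

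The 5 ion, water and carboxylate transporters did not pass in any comparison. They are Slc4a4 (the basolateral sodium bicarbonate carrier), Slc9a3 (the sodium-proton exchanger NHE3), Slc13a1 (sulphate), Slc13a3 (dicarboxylates) and the water channel Aqp1. Their changes over all mgb-/- kidneys lay between -0.15 and 0.04. Slc4a4 lay between 4.16 and 4.42 in control kidneys (median 4.31) and between 3.88 and 4.50 in mild kidneys (median 4.32), at 4.20, 4.38, 3.96, 4.61 and 4.89 in moderate kidneys 1 to 5, and between 2.58 and 4.51 in severe kidneys (median 3.91). The level of Slc13a3 was 6.46 to 6.84 in control kidneys (median 6.74), 6.40 to 7.21 in mild kidneys (median 6.65), 6.58, 6.75, 6.35, 6.61 and 7.13 in moderate kidneys 1 to 5, and 4.98 to 6.78 in severe kidneys (median 6.55). The groups overlapped for both, and their changes were -0.15 ± 0.20 (adjusted p = 0.671) and -0.14 ± 0.19 (adjusted p = 0.671) over all mgb-/- kidneys. In severe kidneys the 5 changes lay between -0.53 and -0.04, and without severe kidney 5 between -0.51 and 0.20, with Slc9a3 (0.20) and Aqp1 (0.09) then above 0.

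Of the brush border and fatty acid genes, Ggt1, the γ-glutamyltransferase that breaks down glutathione in the lumen, fell. Ggt1 ranged from 5.80 to 6.24 in control kidneys (median 5.97), from 5.04 to 5.45 in mild kidneys (median 5.24) and from 3.06 to 6.0 in severe kidneys (median 5.15), and was 4.55, 5.90, 4.48, 4.57 and 5.74 in moderate kidneys 1 to 5. All 7 mild kidneys, 4 of 5 moderate and 5 of 6 severe kidneys lay below the lowest control. The change was -0.87 ± 0.27 (adjusted p = 0.0356) over all mgb-/- kidneys, a call lost when any 1 of the 6 controls was left out. Mep1a, a brush border metalloprotease, changed by -0.37 ± 0.20 (adjusted p = 0.231), and Slc27a2, a fatty acid transport protein, by -0.13 ± 0.15 (adjusted p = 0.618).

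The 3 gluconeogenesis genes did not pass in any comparison and pointed in different directions. Pck1 lay between 7.23 and 8.06 in control kidneys (median 7.65) and between 7.86 and 8.43 in mild kidneys (median 8.01), at 8.35, 7.70, 7.91, 8.21 and 8.32 in moderate kidneys 1 to 5, and between 6.33 and 8.54 in severe kidneys (median 7.91). Pck1 encodes the rate-limiting carboxykinase. Fbp1 lay between 8.49 and 9.0 in control kidneys (median 8.76) and between 8.17 and 8.58 in mild kidneys (median 8.46), at 8.21, 8.81, 7.94, 8.39 and 9.06 in moderate kidneys 1 to 5, and between 6.63 and 8.82 in severe kidneys (median 8.27). G6pc ranged from 5.62 to 6.75 in control kidneys (median 6.54), from 6.31 to 7.02 in mild kidneys (median 6.51) and from 3.88 to 7.01 in severe kidneys (median 6.07), and was 6.66, 6.27, 6.12, 6.85 and 6.73 in moderate kidneys 1 to 5. Groups overlapped for all 3 genes, and severe kidney 5 was the lowest kidney of each. Over all mgb-/- kidneys Pck1 changed by 0.33 ± 0.20 (adjusted p = 0.302), Fbp1 (fructose bisphosphatase) by -0.39 ± 0.21 (adjusted p = 0.235) and G6pc (glucose-6-phosphatase) by 0.02 ± 0.30 (adjusted p = 0.979). In severe kidneys the changes were 0.11, -0.64 and -0.43, in the same order, and 0.39, -0.35 and -0.02 without severe kidney 5.

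The 4 other metabolic enzymes lay below the control mean in each grade. In severe kidneys, where 9.55% of all genes were lower, 2 fell: Agxt2, a mitochondrial aminotransferase, and Dao, the D-amino acid oxidase. The level of Agxt2 was 3.48 to 3.75 in control kidneys (median 3.64), 2.89 to 3.42 in mild kidneys (median 3.11), 2.63, 3.64, 2.28, 2.85 and 3.70 in moderate kidneys 1 to 5, and 1.46 to 3.50 in severe kidneys (median 2.81). All 7 mild kidneys lay below the lowest control, 3.48. The change was -0.90 ± 0.27 (adjusted p = 0.0273) in severe kidneys and -0.65 ± 0.22 (adjusted p = 0.0527) over all mgb-/- kidneys. Dao changed by -0.79 ± 0.27 (adjusted p = 0.0469) in severe kidneys, where kidney 4 has no value, because the scanner software had marked its spot as an outlier. A second probe of Dao, given without a test, changed by -1.04 in severe kidneys and by -0.70 over all mgb-/- kidneys. The call on Dao was lost when any 1 of 17 kidneys was left out, and with the slide as a block (adjusted p = 0.0519). Miox (inositol oxygenase) changed by -0.49 ± 0.25 (adjusted p = 0.18) in severe kidneys and Gatm, which makes the precursor of creatine, by -0.68 ± 0.32 (adjusted p = 0.144). Without severe kidney 5 the changes of Dao, Miox and Gatm were -0.45, -0.20 and -0.36.

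Hnf4a, a nuclear receptor that maintains the differentiated proximal tubule, did not pass. The level of Hnf4a was 7.10 to 7.40 in control kidneys (median 7.23), 6.92 to 7.34 in mild kidneys (median 7.08), 6.83, 7.21, 6.72, 6.93 and 7.66 in moderate kidneys 1 to 5, and 1.41 to 7.16 in severe kidneys (median 6.78). The value of 1.41 in severe kidney 4 came from an affected area, where 24 of 52 bright neighbouring spots were low, and severe kidney 5 was at 5.61. The change in severe kidneys was -1.45 ± 0.62 (adjusted p = 0.111) with that spot and -0.58 ± 0.21 (adjusted p = 0.0567) without it. Over all mgb-/- kidneys it was -0.59 ± 0.55 (adjusted p = 0.517) with the spot and -0.28 without it.

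Of the 2 vitamin D hydroxylases, Cyp27b1, the 1α-hydroxylase that makes the active hormone, rose. Cyp27b1 ranged from -2.19 to -0.94 in control kidneys (median -1.79), from -2.21 to 1.67 in mild kidneys (median 0.42) and from -1.42 to 0.69 in severe kidneys (median 0.10), and was 0.57, -0.27, -1.03, 1.24 and -1.70 in moderate kidneys 1 to 5. In mgb-/- kidneys 14 of 18 values stood above the highest control, -0.94, and mild kidney 4 (-2.21) lay at the level of the lowest control (-2.19). The change was 1.70 ± 0.45 (adjusted p = 0.016) over all mgb-/- kidneys and 2.01 ± 0.54 (adjusted p = 0.029) in mild kidneys. It was above 0 on each slide (1.57, 1.46 and 2.06), and over all mgb-/- kidneys it passed in all 36 other settings. The call in mild kidneys was lost without control kidney 3, 4, 5 or 6 or mild kidney 3, 5 or 6. Cyp24a1 lay between -2.41 and 1.21 in control kidneys (median 0.63) and between -0.13 and 2.76 in mild kidneys (median 2.47), at 2.66, 0.00, 0.30, 3.02 and 1.36 in moderate kidneys 1 to 5, and between -1.0 and 1.51 in severe kidneys (median -0.17). Cyp24a1, which breaks the hormone down, spread over more than 3 log2 units among the controls alone. Its change was 1.19 ± 0.62 (adjusted p = 0.209) over all mgb-/- kidneys and 1.90 ± 0.66 (adjusted p = 0.0902) in mild kidneys, and it was above 0 on 2 of the 3 slides.

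By grade, severe kidneys held nearly all calls. In severe kidneys 13 of the 42 genes were lower (9.55% of all genes were) and 0 were higher (6.56% of all genes), with a median change of -0.54 beside 0.02 over all genes. With a fold of at least 2, 6 were lower (1.73% of all genes), and without severe kidney 5 there were 2, Slc34a3 and Slc6a19. In mild kidneys 0 were lower (3.01% of all genes) and 1 was higher (3.01% of all genes), and in moderate kidneys 0 were lower (0.554% of all genes) and 0 higher (0.647% of all genes), with 8 of 42 at an unadjusted p under 0.05 in each of these 2 grades. The count of 13 was 8, 7 and 5 without control kidney 1, 2 and 3, and 5, 3 and 6 without severe kidney 1, 2 and 5. In the same order 1841, 1888, 1329, 1292, 1195 and 1684 of all 27985 genes were lower, against 2672 with every kidney. Without severe kidney 5, 6.02% of all genes were lower and the median change of the 42 genes was -0.32. Leaving out the spots in affected areas gave 15 lower (10.3% of all genes) and 0 higher (7.03% of all genes). Amn, Slc17a1 and Slc6a19 passed whichever kidney was left out. Slc34a3 and Slc2a2 were lost without severe kidney 2 alone, and the other 8 were each lost without severe kidney 1 or 2 and without between 2 and 15 further kidneys. The 3 comparisons share the control kidneys.

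Calls in mild and severe kidneys depended on which groups entered the fit. With the 4 groups in 1 fit, all groups share 1 estimate of the spread. When mild kidneys were fitted with the controls alone, 13 of the 42 genes were lower (11.6% of all genes) and 3 higher (8.32% of all genes). The 13 were Agxt2, Amn, Dab2, Dao, Ggt1, Slc17a1, Slc17a3, Slc1a1, Slc34a1, Slc34a3, Slc5a2, Slc6a20b and Slc7a13, and the 3 were Cyp27b1, Slc15a2 and Slc5a1. When severe kidneys were fitted with the controls alone, 0 were lower (2.67% of all genes) and 1 was higher, Cyp27b1 (3.96% of all genes). For 9 of the 42 genes every mild kidney lay below the lowest control (6.16% of all genes), and for 2 every mild kidney lay above the highest (3.0% of all genes). For 2 genes, Slc17a1 and Slc6a19, every severe kidney lay below the lowest control (2.2% of all genes), and for 0 above the highest (2.86% of all genes). The value of Slc6a19 in severe kidney 4, counted here, came from an affected area of its array.

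The difference between grades was tested directly. None of the 42 genes passed between severe and mild kidneys, where 0.0536% of all genes were lower and 0.532% higher in severe kidneys, with 13 of the 42 at an unadjusted p under 0.05. The changes lay below 0 for 41 of the 42 genes, and the share of all genes below 0 is not given here. Over all genes, the median difference of a kidney from the control mean lay between -0.04 and 0.01 in mild kidneys. In severe kidneys it lay between -0.20 and 0.23. Without severe kidney 5 the changes of the 42 genes lay below 0 for 32, with 6 at an unadjusted p under 0.05 and none passing. The change of Slc7a13 then turned from -0.28 to 0.41 and that of Ggt1 from -0.26 to 0.13. With the spots in affected areas left out, Slc6a19 passed, where 0.0715% of all genes were lower and 0.561% higher. Between moderate and mild kidneys 0 of the 42 passed (0.0% of all genes lower and 0.0% higher), with 1 at an unadjusted p under 0.05. Between severe and moderate kidneys 0 passed (0.00357% of all genes lower and 0.00357% higher), with 9 at an unadjusted p under 0.05. Counts at an unadjusted p, here and elsewhere, stand without the share of all genes beside them.

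**Figure D3:**
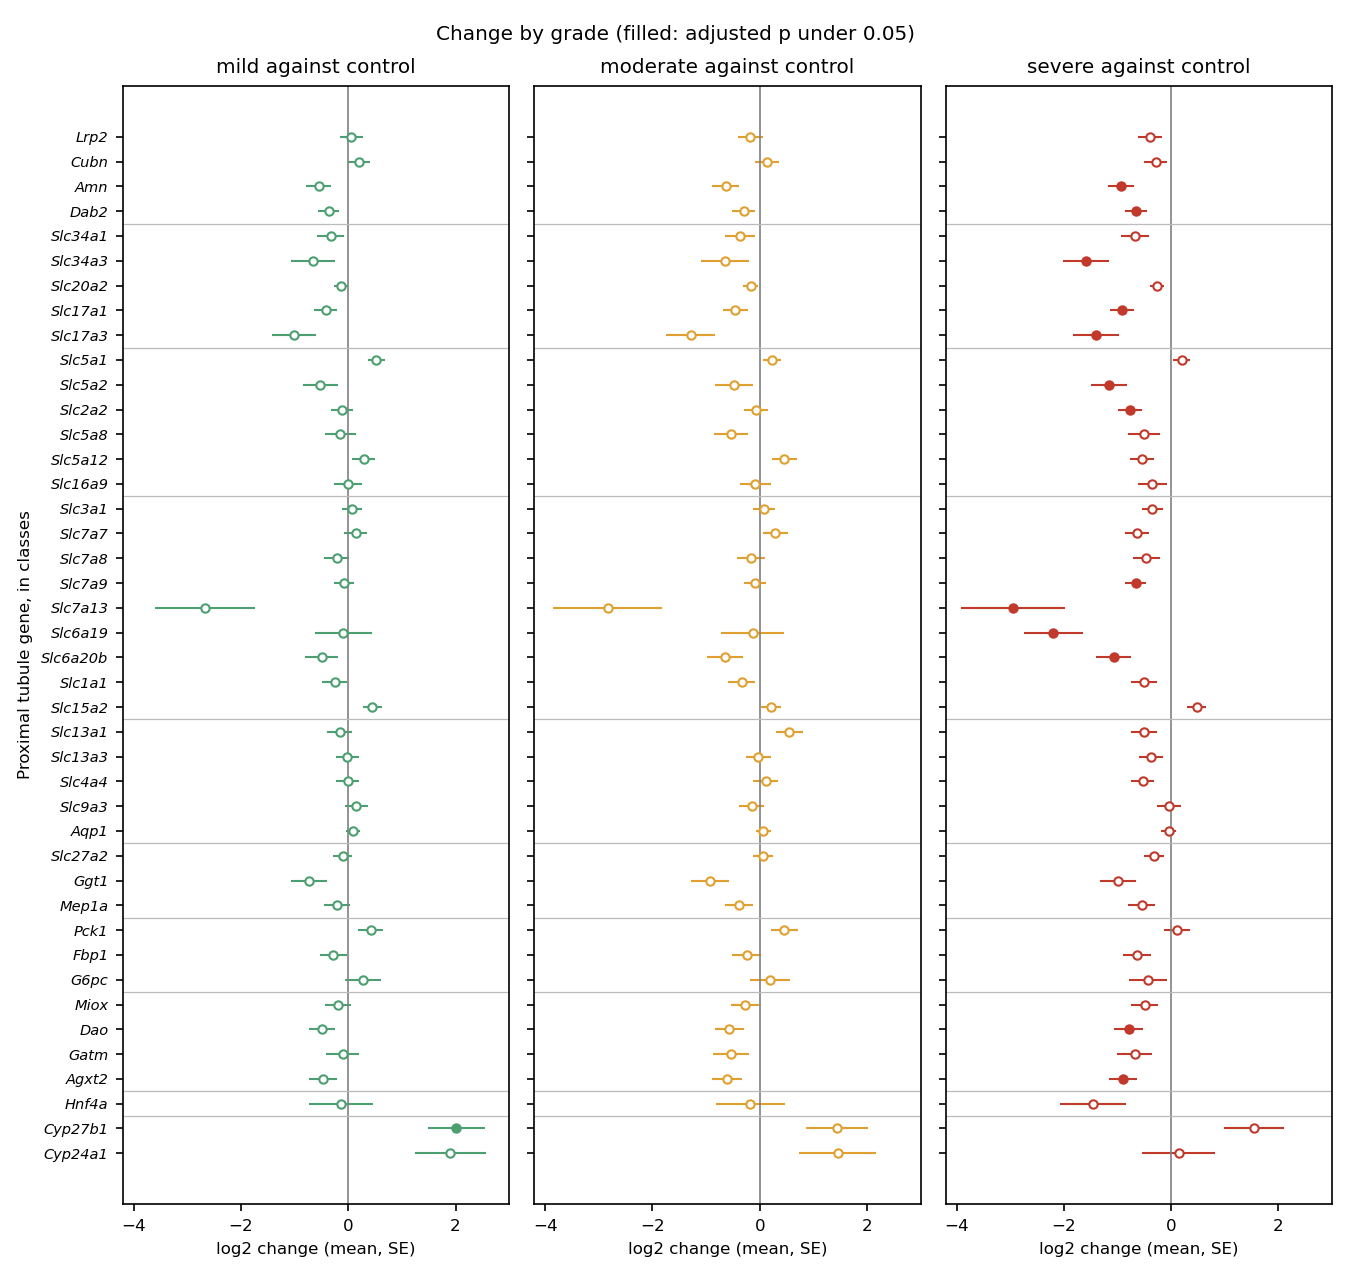
Log2 change from control (horizontal axis, with SE) of the 42 genes in mild, moderate and severe kidneys from the fit of 4 groups, with filled points at an adjusted p under 0.05. In severe kidneys 13 points are filled, all below 0, in mild kidneys only Cyp27b1, and in moderate kidneys none.

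Members of the early and the late segment were set side by side. In severe kidneys, where 9.55% of all genes were lower, 3 of 6 early members passed (Slc5a2, Slc2a2 and Slc6a19), with a median change of -0.72, against a median of -0.10 in mild kidneys. Of 6 late members 1 passed in severe kidneys (Slc7a13), with a median of -0.51, and the median in mild kidneys was -0.20. The moderate kidneys split: in kidneys 1 and 4 the late members lay at a median of -0.94 and -0.58 and the early members at -0.11 and 0.23, while in kidney 3 they lay at -0.73 and -0.83. In severe kidneys 1 to 6 the early members lay at -0.72, -1.01, -0.56, -0.0008, -2.0 and -0.20 and the late members at -0.29, -0.36, -0.06, -0.23, -2.18 and -0.02, so the early members were lower in 4 kidneys and the late members in kidneys 4 and 5. These are counts and medians of 6 genes a segment, and the difference between segments was not tested.

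Kidneys of the same grade differed widely. The median difference of the 42 genes from the control mean lay between -0.12 and 0.06 in control kidneys and between -0.34 and -0.02 in mild kidneys. In moderate kidneys 1 to 5 it was -0.35, -0.02, -0.35, -0.22 and 0.25. In severe kidneys 1 to 6 it was -0.53, -0.78, -0.24, -0.03, -1.81 and -0.06. Severe kidney 6 held no gene that was lower than the control mean by more than 1. Markers of tubular injury differed among the same kidneys. Lcn2, a secreted protein of damaged tubules that was chosen after its values were seen, lay above the control mean by 7.38, 5.08 and 6.09 in moderate kidneys 1, 3 and 4 and by 6.27 in severe kidney 5, and its difference was -0.26 and -0.37 in moderate kidneys 2 and 5. In severe kidneys 1, 2, 3, 4 and 6 it was 2.84, 2.58, 0.52, 2.51 and 2.45. By their median the 42 genes of kidneys 4 and 6 lay near the control mean, with Lcn2 like that of kidneys 1 and 2. Single genes of kidney 4 lay far below, such as Slc7a13 (-4.35) and Slc17a3 (-1.44). The median difference of all genes on its array was 0.23. Havcr1, another tubular injury marker, differed from the control mean by 2.84, 1.86, 1.62 and 0.08 in severe kidneys 1, 2, 4 and 6. The part of these markers in the levels of the proximal tubule genes was not tested.

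**Figure D4:**
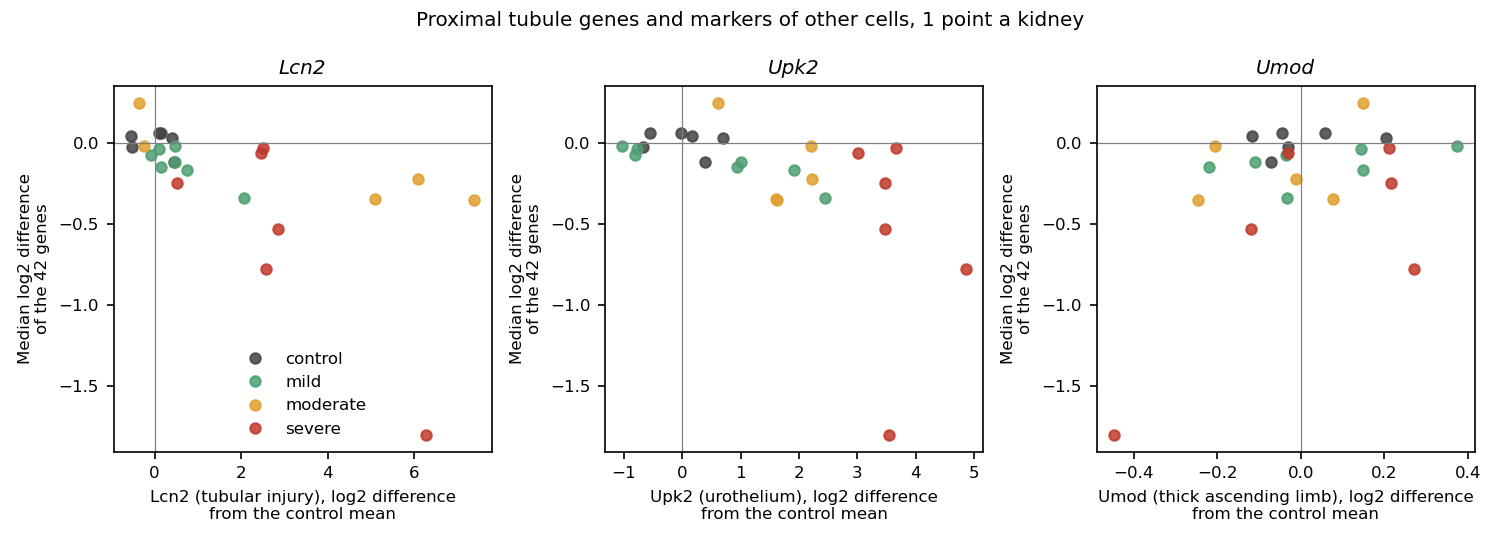
Median log2 difference of the 42 genes from the control mean (vertical axis) against the log2 difference of Lcn2, Upk2 and Umod (horizontal axes), 1 point a kidney and coloured by group. Severe kidney 5 is lowest, at -1.81, and the 3 moderate kidneys above 5 for Lcn2 lie between -0.35 and -0.22.

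Markers of other cells also differed between severe and control kidneys. All 7 urothelial markers rose in severe kidneys, with a median change of 3.53, and their summed log2 level was 6.26 to 8.0 there and 2.76 to 4.38 in controls. Upk1b, a uroplakin, changed most, by 3.84 ± 0.54 (SE; adjusted p = 0.000177). Of 7 injury markers 1 passed in severe kidneys, Krt20 (4.02 ± 0.72, adjusted p = 0.00164), where 6.56% of all genes were higher. The summed level of the 7 was 6.12 to 8.82 there and 6.38 to 6.73 in controls. Krt20 lay 2.46 to 6.93 above the control mean in severe kidneys, and the urothelial marker Upk2 3.01 to 4.86 above it. The injury marker Havcr1 lay between -0.33 and 7.31. The study lists other keratins among urothelial genes, and which cells gave the Krt20 signal was not tested. Among 5 fibroblast and smooth muscle markers Tagln (1.66 ± 0.32, adjusted p = 0.0031) and Acta2 rose in severe kidneys, and the summed level was 5.85 to 7.63 there and 4.96 to 5.58 in controls. Umod, the defining marker of the thick ascending limb, changed by 0.02 ± 0.12 in severe kidneys (adjusted p = 0.944), and Cldn16 of the same segment rose by 1.53 ± 0.14 (adjusted p = 2.25e-06). Aqp2 of the collecting duct rose by 1.03 ± 0.29 (adjusted p = 0.0231), and Kdr, 1 of 5 endothelial markers, fell by 0.39 ± 0.11 (adjusted p = 0.0235). The other endothelial markers had close medians in control and severe kidneys. These were -0.14 and -0.13 for Pecam1, 0.70 and 0.82 for Cdh5, 1.89 and 1.80 for Emcn, and 2.36 and 2.24 for Ehd3. None of the markers of distal convoluted tubule (3), intercalated cells (5), podocytes (5) and leukocytes (4 of 5 tested) passed in severe kidneys, and Ptprc, the defining leukocyte marker, changed by 0.48 ± 0.29 (adjusted p = 0.257). Defining proximal markers were present on every array, and no marker list was at 0. The part of these cells in the levels of the 42 genes was not tested.

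Other genes of the same pathways, outside the 42, were counted by list, beside 8.0% lower and 5.34% higher among all genes over all mgb-/- kidneys and 9.55% and 6.56% in severe kidneys. Over all mgb-/- kidneys 1 of 8 endocytosis partners fell, Lrpap1, the chaperone of megalin (-0.64 ± 0.22, adjusted p = 0.0486). Of 23 other transporters and their partners 3 fell and 1 rose. The largest fall was that of Slc51a, a steroid transporter subunit (-1.15 ± 0.30, adjusted p = 0.0146), and the 1 rise was that of Slc6a20a, the paralogue of the imino acid carrier Slc6a20b (0.72 ± 0.15, adjusted p = 0.00571). Slc6a20a lay between -0.04 and 0.40 in controls and between 0.74 and 1.46 in mild kidneys. Of 10 brush border enzymes 2 fell and 1 rose. Treh (trehalase) fell by 1.15 ± 0.31 (adjusted p = 0.0174) and Mme (neprilysin) rose by 0.67 ± 0.18 (adjusted p = 0.0194). None of 16 other metabolic genes passed over all mgb-/- kidneys, 6 of them with an unadjusted p under 0.05, and in severe kidneys 4 fell, most of all Hgd, which breaks down homogentisate (-1.01 ± 0.28, adjusted p = 0.0222).

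Among 7 other regulators 3 fell over all mgb-/- kidneys, with the largest change for Hnf4g, a paralogue of Hnf4a (-0.66 ± 0.19, adjusted p = 0.0249). Of 13 genes of the phosphate and vitamin D axis 1 rose and 1 fell over all mgb-/- kidneys. Slc20a1 (PiT-1), the sodium-phosphate carrier of most cells, rose by 0.88 ± 0.16 (adjusted p = 0.0022), and lay at 3.24 to 4.38 in mild and 3.20 to 4.14 in severe kidneys against 2.80 to 3.08 in controls. The phosphate exporter Xpr1 fell by 0.51 ± 0.15 (adjusted p = 0.0281). In severe kidneys Kl (klotho), the coreceptor of the phosphate hormone FGF23, had the largest fall of this list (-0.93 ± 0.27, adjusted p = 0.0266).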

How the data were processed

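Total RNA of 24 whole kidneys was hybridised to 1-colour (Cy3) Agilent mouse arrays, 1 kidney on each. The authors deposited scanner intensity values from Agilent Feature Extraction 10.10, background-subtracted and detrended within each array and not normalized between arrays. The authors also deposited a table of normalized intensities, of which the log2 was taken and which served only as an alternative. Outlier spots were left out, each array was scaled to its 75th percentile on the log2 scale, and a probe entered (38866 did) if 5 or more arrays showed it well above background. The brightest probe stood for a gene, named through RefSeq accessions, which gave 27985 genes. Groups followed the labels. limma 3.58.1 in R 4.3.3 fitted mgb-/- against control kidneys (2 groups) and the grades (4 groups), with Benjamini-Hochberg adjustment over all genes, and the scripts were tested on simulated data. The number of arrays limits the precision.

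The 42 genes and all gene lists were chosen with earlier results of these data known. Levels are given for both endocytosis receptors, Amn, Dab2, Slc34a1, Slc34a3, Slc20a2, Slc7a13, the gluconeogenesis genes, Hnf4a and both hydroxylases. They are also given for the gene with the smallest adjusted p of every other class, for the 5 genes with the largest change that passed, and for genes that passed between severe and mild kidneys. Slc17a1 was added after its values were seen. Genes outside the 42 are those with the largest rise or fall of their list that passed, or a defining marker. Alternatives were other scalings, background corrections (normexp on the median signals with an offset of 50), filters, probe rules, the slide or the replicate number as a block, array weights, the compared groups alone and leaving out each kidney. Leaving out spots in affected areas was chosen after seeing the data. A spot counted as affected where at least 10% of the bright spots within 4 rows and columns lay more than 3 log2 units below the other arrays. A regulator in the lists is not reported here.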

Additional observations from a re-analysis of the deposited data

Results flagged for a closer look

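In 168 groups of kidneys, 1 for each gene and group, 19 held a kidney far from the rest of its group by Dixon's criterion, which chance meets in about 1 of 20 groups. Severe kidney 5 was the low kidney in 15 of them. Its levels were 5.46 for Lrp2, 4.34 for Cubn, 5.86 for Slc34a1, 1.76 for Slc5a8, 2.35 for Slc16a9, 3.88 for Slc3a1, 2.34 for Slc1a1 and 4.98 for Slc13a3. They were 5.75 for Aqp1, 7.01 for Slc27a2, 3.06 for Ggt1, 5.87 for Mep1a, 6.33 for Pck1, 3.88 for G6pc and 6.83 for Miox. The same kidney had the highest Havcr1, a tubular injury marker, at 7.31 above the control mean.

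Severe kidney 4 lay far below the other severe kidneys for Slc6a19 (-1.73) and Hnf4a (1.41), both from the affected areas of its array. Mild kidney 2 was low for Slc4a4 (3.88), and control kidney 2 was high for Aqp1 (6.86).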

How the results depend on the processing

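Each gene was refitted under 36 alternatives, and no gene that passed over all mgb-/- kidneys or in severe kidneys changed sign in any of them. Counts of the 42 genes that passed did move. With array quality weights they were 12 lower and 4 higher over all mgb-/- kidneys, 9 lower and 4 higher in mild, 9 lower and 1 higher in moderate, and 20 lower and 2 higher in severe kidneys, and 5 lower in severe than in mild kidneys. The weights also raised the calls among all genes, to 18.0% lower over all mgb-/- kidneys, 14.5% for mild, 6.89% for moderate and 16.8% for severe kidneys. The shares of all genes that were higher were 12.6%, 12.1%, 4.72% and 10.6%, in the same order. Between severe and mild kidneys 1.14% of all genes were then lower. With the slide as a block 4 were lower over all mgb-/- kidneys (without Slc17a1), where 7.45% of all genes were. In severe kidneys 12 were lower (without Dao), where 8.53% of all genes were. With the compared groups alone the counts were 13 lower (11.6% of all genes) and 3 higher (8.32%) in mild kidneys. In severe kidneys they were 0 lower (2.67% of all genes) and 1 higher (3.96%). Scaling by the median gave 9 lower over all mgb-/- kidneys (2801 of all 27985 genes) and 0 higher in mild kidneys (241 of all genes). A fold of at least 2 left 2 lower over all mgb-/- kidneys (1.26% of all genes) and 6 in severe kidneys (1.73% of all genes). In mild kidneys 2 genes were higher with the normexp background, with the filter on all arrays and without the spots in affected areas. Among all genes 736 of 27985, 950 of 20938 and 955 of 27985 were, in the same order. In severe kidneys 1 gene was higher with quantile normalization, with the authors' table and with the filter on all arrays. Among all genes 1969 of 27985, 2187 of 27985 and 1894 of 20938 were, in the same order. Between severe and mild kidneys 1 gene was lower with normexp (27 of all 27985 genes) and without the spots in affected areas (20 of all genes). The cause of these shifts was not tested.

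Leaving out 1 kidney gave 2 to 8 lower and 1 to 3 higher over all mgb-/- kidneys, 0 to 1 lower and 0 to 2 higher in mild, 0 to 1 lower and 0 to 0 higher in moderate, and 3 to 18 lower and 0 to 2 higher in severe kidneys. Between severe and mild kidneys it gave 0 to 3 lower and 0 to 0 higher. The 3 lower came without severe kidney 4, and the 3 higher over all mgb-/- kidneys without severe kidney 5. The counts among all 27985 genes moved as well. They were 1050 to 2814 lower and 697 to 1880 higher over all mgb-/- kidneys. In mild kidneys they were 383 to 1331 and 435 to 1131, and in moderate kidneys 6 to 685 and 10 to 627. In severe kidneys they were 1195 to 4198 and 1088 to 3129, and between severe and mild kidneys 4 to 111 and 67 to 201. With the replicate number as a block, 0 genes were lower and 1 (Cyp27b1) was higher over all mgb-/- kidneys, where 1258 and 859 of all 27985 genes were. With this block 0 were higher in mild kidneys (270 of all genes) and 6 were lower in severe kidneys (1441 of all genes). The labels do not say that the numbers pair kidneys, and kidneys with the same number did not all deviate together.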
